A study of Mus musculus with 4 samples.

Results

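Skeletal muscle contractile genes were examined in tumors grown in the mammary fat pad, a site that lies beside the muscle of the body wall, to ask whether muscle was carried along with the tumor tissue. The set is a list of 37 genes that encode the filaments of the sarcomere, the calcium machinery that switches them on and the enzymes that fuel them. A member was represented by a probe set whose only gene symbol in the platform annotation was the listed gene, and where several probe sets qualified, the one with the highest mean over all arrays stood for it. Of the 37 genes, 35 could be measured in this way, among 17097 genes on the array. Mybpc2, a fast-muscle myosin-binding protein, and Neb, the giant ruler protein of the thin filament, had no such probe set and were not analysed here.

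The tumors were formed by 4T1Ch9, a cherry-tagged line of mouse triple-negative breast cancer (TNBC) of Balb/c origin, after injection of 50000 cells. The methods describe the mice as female Balb/c wild-type animals aged 6 to 8 weeks. After 10 days of growth, mice were given MEKi (trametinib, an inhibitor of the MEK kinases, at 1 mg/kg daily) or vehicle for 7 days, and total RNA of the bulk tumor was hybridized to Affymetrix MG-430PM arrays, 2 per group. Whether a group's 2 arrays stem from different mice is not stated in the sources used here, so that p-values reflect the spread of these arrays alone, which may be technical, and precision is limited by their number.

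A skeletal muscle fibre shortens when myosin heads of the thick filament pull on actin of the thin filament. The pull is licensed by calcium, which is released from the sarcoplasmic reticulum after a voltage sensor in the membrane is tripped, and which binds troponin on the thin filament. Fast and slow fibres use different isoforms of myosin and troponin, and several slow-fibre isoforms are also those of the heart. Transcripts of these proteins are among the most abundant of a muscle fibre and are scarce or absent in carcinoma and lymphoid cells, but some members, above all Tpm2 and Eno3, are also used outside striated muscle.

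The values are log2 expression per probe set, which can be compared between arrays for 1 gene but not between genes. The 4 arrays had medians of 5.14 (MEKi 1), 4.98 (MEKi 2), 5.11 (vehicle 1) and 5.12 (vehicle 2), and 25th percentiles from 3.85 to 3.88. Arrays are named here by their labels, because they did not group by them. Across genes (45037 tested probe sets, which do not count as independent replicates), Pearson's r reached 0.992 between MEKi 1 and vehicle 2 and 0.978 between MEKi 2 and vehicle 1, whereas it was 0.927 between both arrays labelled MEKi and 0.959 between both arrays labelled vehicle. Dusp6, a phosphatase gene induced by the ERK pathway that MEK drives, read 9.59 in MEKi 1 and 12.30 in MEKi 2, against 12.02 in vehicle 1 and 10.96 in vehicle 2, so that the lowest and the highest reading both belonged to arrays labelled MEKi. No array was moved to another group. In bulk RNA, fewer cells of a type and less RNA per cell cannot be told apart.

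The promoters of 6 members are shown, because they are the genes on which the following account turns. Acta1, Ckm and Myh4 are defining genes of the muscle fibre, and Cacna1s, Tnnc1 and Eno3 are members that differed widely between arrays. Each sequence is the 250 bases before the annotated start of the gene, read 5′ to 3′ on the coding strand, from RefSeq (GRCm38.p6). Capitals mark E boxes (CANNTG, the element of the myogenic factors), CArG boxes (the element of serum response factor) and MEF2 sites. All 3 motifs read the same on both strands, and bases that fall in several motifs are capitalized once.
Acta1, chr8:123894776-123895025, minus strand: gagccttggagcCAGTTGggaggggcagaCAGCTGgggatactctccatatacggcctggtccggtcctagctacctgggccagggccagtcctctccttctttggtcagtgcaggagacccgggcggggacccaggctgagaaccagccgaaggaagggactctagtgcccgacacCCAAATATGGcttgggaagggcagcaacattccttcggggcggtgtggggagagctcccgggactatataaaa
Ckm, chr7:19410844-19411093, plus strand: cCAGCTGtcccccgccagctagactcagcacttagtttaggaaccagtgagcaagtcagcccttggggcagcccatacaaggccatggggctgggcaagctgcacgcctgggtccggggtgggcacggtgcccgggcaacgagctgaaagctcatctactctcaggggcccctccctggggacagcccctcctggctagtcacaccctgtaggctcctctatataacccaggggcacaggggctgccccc
Myh4, chr11:67237562-67237811, plus strand: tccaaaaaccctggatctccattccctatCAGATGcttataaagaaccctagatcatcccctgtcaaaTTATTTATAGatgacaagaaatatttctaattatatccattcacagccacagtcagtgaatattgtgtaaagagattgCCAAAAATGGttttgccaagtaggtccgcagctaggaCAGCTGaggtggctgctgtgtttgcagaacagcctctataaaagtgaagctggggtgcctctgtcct
Cacna1s, chr1:136052561-136052810, plus strand: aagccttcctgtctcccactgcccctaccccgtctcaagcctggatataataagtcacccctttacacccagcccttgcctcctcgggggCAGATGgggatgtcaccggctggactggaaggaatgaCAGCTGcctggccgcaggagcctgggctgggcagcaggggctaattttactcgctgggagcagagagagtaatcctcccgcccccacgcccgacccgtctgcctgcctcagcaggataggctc
Tnnc1, chr14:31208062-31208311, plus strand: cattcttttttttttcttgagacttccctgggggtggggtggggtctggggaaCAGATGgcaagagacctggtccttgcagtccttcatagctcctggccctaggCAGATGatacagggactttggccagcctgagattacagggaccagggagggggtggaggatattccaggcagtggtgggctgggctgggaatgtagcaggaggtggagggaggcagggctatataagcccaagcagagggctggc
Eno3, chr11:70656926-70657175, plus strand: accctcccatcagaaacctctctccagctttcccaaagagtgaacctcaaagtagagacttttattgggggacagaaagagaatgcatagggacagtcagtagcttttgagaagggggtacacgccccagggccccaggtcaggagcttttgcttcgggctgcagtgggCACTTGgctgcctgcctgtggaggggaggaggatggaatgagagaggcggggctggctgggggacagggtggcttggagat

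Among 32851 promoters of the same length, 66.2% held an E box, 1.47% a CArG box and 2.92% a MEF2 site. Of the 28 measured members with a promoter entry, 23 held an E box. A CArG box was present in 5, namely Acta1, Ldb3, Myh4, Myl3 and Myom1, and a MEF2 site in 5, namely Myh1, Myh4, Pgam2, Pvalb and Ttn. The Acta1 window shown has 2 E boxes and 1 CArG box, and the Myh4 window has 2 E boxes, 1 CArG box and 1 MEF2 site. The Tnnc1 and Cacna1s windows have 2 E boxes each, and the Eno3 and Ckm windows have 1. A match is a run of letters and not a measured binding site.

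Most muscle genes read below the array median on every array, a rank among probe sets that does not compare RNA amounts between genes. Of the 35 measured members, 23 lay below the array median on all 4 arrays, 9 lay above it on 1 to 3 arrays, and 3 (Tpm2, Ryr1 and Eno3) lay above it on all 4. Members above the median on at least 1 array thus numbered 12 of 35, where 65.9% of all 17097 genes were. For all 4 arrays the figure was 3 of 35, against 56.9% of all genes. The members' median level was 4.49 in MEKi 1 and 4.14 in MEKi 2, against 4.14 in vehicle 1 and 4.24 in vehicle 2, and the members' median percentile rank was 41.8 in MEKi 1 and 34.9 in MEKi 2, against 35.1 in vehicle 1 and 37.2 in vehicle 2.

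A marker list of 8 members (Acta1, Ckm, Myh1, Myh2, Myh4, Myh7, Tnnt3 and Atp2a1), drawn up with earlier results of these data known, read between 3.43 and 4.94, and 0 of 8 exceeded the median of any array. This count depends on the choice, since other members typical of the fibre, among them Mylpf, Myl1, Tnni2, Mb, Pgam2 and Ttn, exceeded a median on at least 1 array. The median of the 8 markers was 4.04 in MEKi 1 and 4.07 in MEKi 2, against 4.09 in vehicle 1 and 3.89 in vehicle 2. As a gauge of genes that should be silent in a tumor, 39 olfactory receptor genes, a list chosen after values were seen, read between 3.26 and 4.78, with medians of 3.63 (MEKi 1), 3.80 (MEKi 2), 3.65 (vehicle 1) and 3.72 (vehicle 2). Measured against the highest olfactory receptor gene of each array, in place of the array median, 13 members stayed below on every array, and the others exceeded it on at least 1. Myh2 and Myot lay below the 25th percentile on all 4 arrays. For neither count was the share of all genes computed, so neither can be read as particular to the members.

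**Figure D1:**
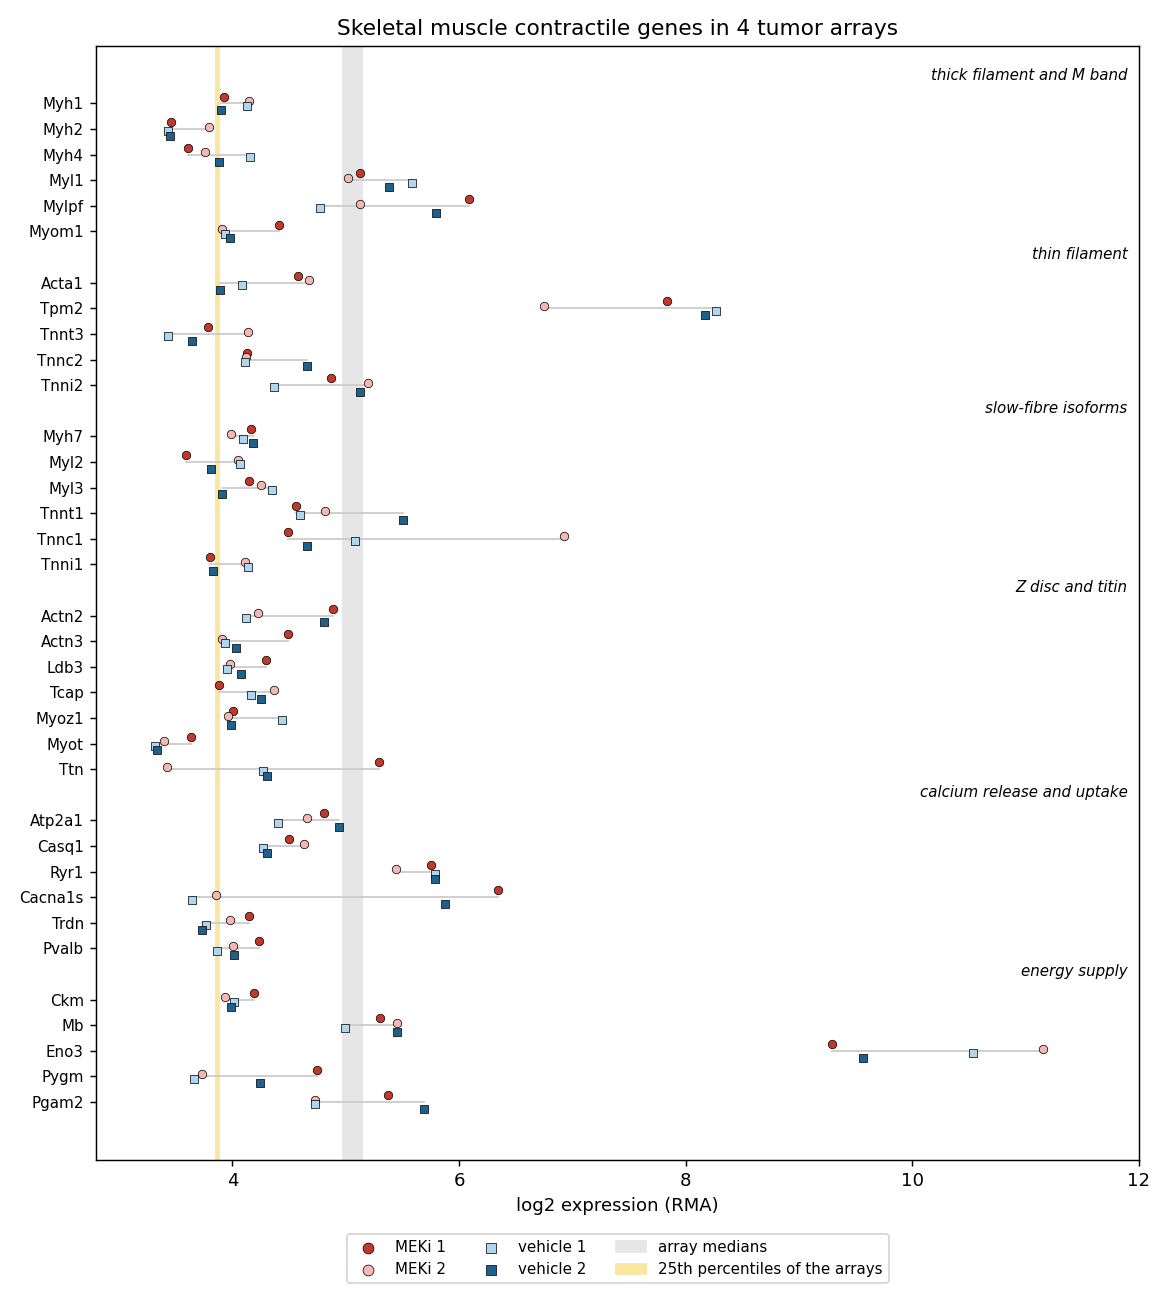
Log2 expression (x axis, RMA values) of the 35 measured members in each of the 4 arrays, grouped by role. Circles stand for MEKi arrays and squares for vehicle arrays, a grey line joins the readings of a gene, and the shaded bands span the medians (4.98 to 5.14) and 25th percentiles (3.85 to 3.88) of the arrays. Most members sit between the bands, and only Tpm2, Ryr1 and Eno3 lie to the right of the medians in every array.

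Between the labels, 0 of 35 members and 0 of 45037 probe sets (0%) were called by limma when an adjusted p under 0.1 was required together with an unadjusted p under 0.05 and a change above 1.5-fold, and the lowest adjusted p was 1. Unadjusted p was under 0.05 for 1 member, Acta1, and for 0.901% of the probe sets (406). With the arrays centred on ubiquitous reference genes, which moved the median difference of all probe sets to −0.11, against 0.01, it was under 0.05 for 0 members. The members' fitted log2 differences, MEKi minus vehicle, ran from −0.92 (Tpm2) to 0.84 (Tnnc1), 23 of them positive and 12 negative (17 and 18 after centring), with a median of 0.09 (−0.03 after centring) beside 0.01 over all probe sets. Standard errors ran from 0.17 to 1.24. In 29 of 35 members the difference by label was smaller than the larger of the 2 gaps between arrays of 1 label. The exceptions were Acta1, Casq1, Myh4, Myl1, Tnnt3 and Trdn. The share of all genes with such gaps was not computed, so this count cannot be read as particular to the members.

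Both MEKi arrays lay above both vehicle arrays in 6 members (Myh2, Acta1, Tnnt3, Myot, Casq1 and Trdn), where 11.0% of all genes did so. Both lay below in 4 members (Myh4, Myl1, Tpm2 and Ryr1), against 10.2% of all genes. Most of these readings differed by little, and after centring the counts were 2 (Acta1 and Tnnt3) and 7 (Myh4, Myl1 and Tpm2, joined by Myh1, Myl2, Tnni1 and Myoz1). The shares of all genes after centring were not computed, so the centred counts cannot be read as particular to the members. Acta1, the actin of the skeletal muscle thin filament, read 4.58 and 4.67 in the MEKi arrays, against 4.08 and 3.89 in the vehicle arrays. The groups did not overlap, the log2 difference was 0.64 (SE 0.18, 95% interval 0.13 to 1.15, unadjusted p = 0.0255, adjusted p = 1 in limma), and all 4 readings were below the array medians.

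**Figure D2:**
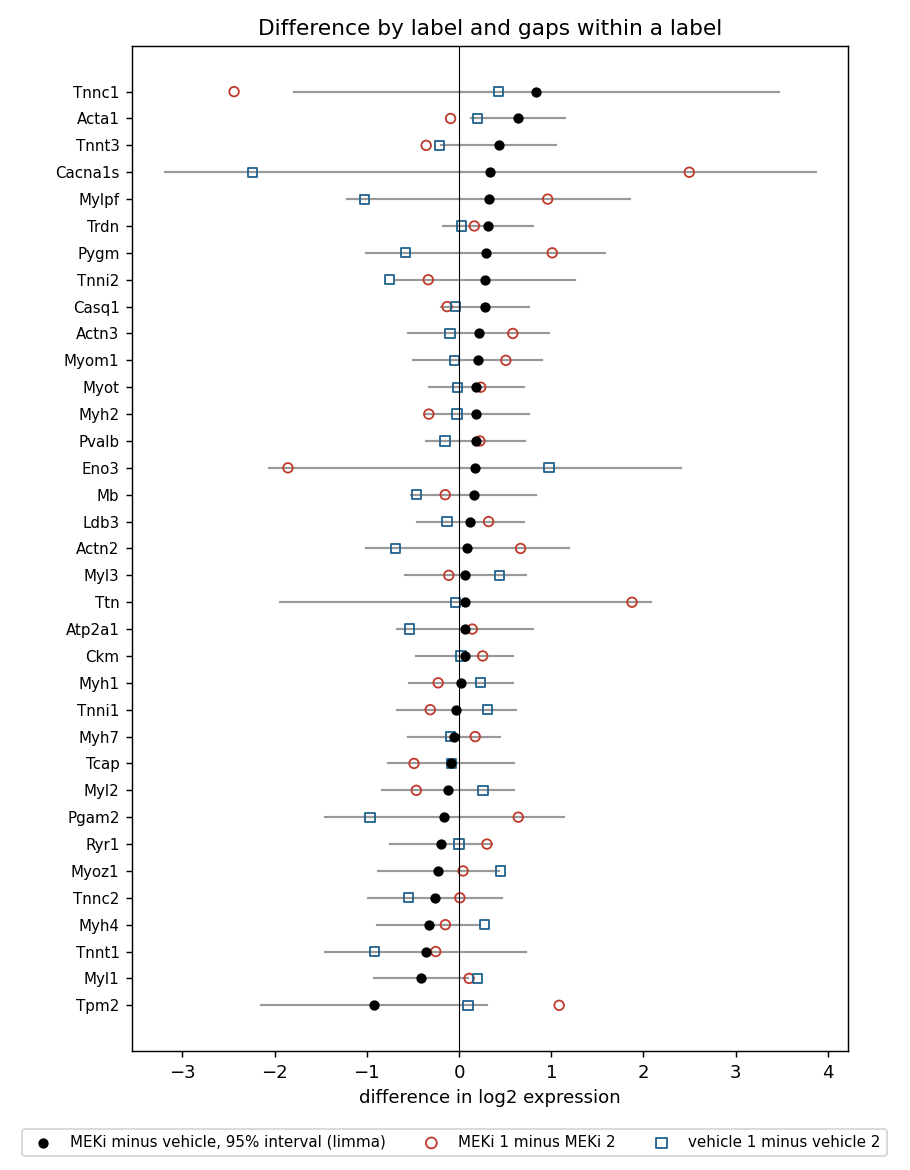
Log2 differences (x axis) for the 35 measured members, ordered by the fitted difference. Black points are MEKi minus vehicle with the 95% interval from limma, red circles are MEKi 1 minus MEKi 2 and blue squares vehicle 1 minus vehicle 2; for Tnnc1, Cacna1s, Ttn and Eno3 a gap within a label exceeds the difference by label.

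Thick filament genes lay below the array medians apart from both fast light chains. Mylpf, the regulatory light chain of fast myosin, read 6.08 in MEKi 1 and 5.12 in MEKi 2, against 4.77 in vehicle 1 and 5.79 in vehicle 2. It was high on MEKi 1 and vehicle 2 and low on the other 2 arrays, so that the groups overlapped, and the log2 difference by label was 0.32 (SE 0.54). Myl1, the essential light chain of fast myosin, read 5.13 and 5.02 in the MEKi arrays, against 5.59 and 5.39 in the vehicle arrays. The MEKi readings of Myl1 were both below the vehicle readings, with a log2 difference of −0.41 (SE 0.18, adjusted p = 1).

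The heavy chains, which form the motor itself, stayed below the median of every array. Myh4, the heavy chain of the fastest fibres, read 3.61 and 3.76 in the MEKi arrays, against 4.15 and 3.88 in the vehicle arrays. Its difference of −0.33 on the log2 scale (SE 0.20) was made of readings around the 25th percentile of the arrays. In a further Myh4 probe set the groups overlapped, at 3.35 and 3.58 in the MEKi arrays, against 3.31 and 3.58 in the vehicle arrays. Myh1 and Myh2, the other fast heavy chains of adult limb and trunk muscle, read 3.92 and 4.15 (Myh1) and 3.46 and 3.79 (Myh2) in the MEKi arrays, against 4.13 and 3.90 (Myh1) and 3.43 and 3.45 (Myh2) in the vehicle arrays. Myom1, which ties thick filaments together at the M band, read 4.41 and 3.91 in the MEKi arrays, against 3.93 and 3.98 in the vehicle arrays, where MEKi 1 alone stood above the rest.

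Of the thin filament genes, Tpm2 was the only one above the array median throughout. Tpm2, the β-tropomyosin that lies along actin in slow fibres and is also made by smooth muscle and fibroblasts, read 7.83 in MEKi 1 and 6.75 in MEKi 2, against 8.26 in vehicle 1 and 8.17 in vehicle 2. Both MEKi readings were below both vehicle readings, but MEKi 1 was nearer to the vehicle arrays than to MEKi 2. The log2 difference was −0.92 (SE 0.43, 95% interval −2.15 to 0.30, adjusted p = 1). Of 3 further Tpm2 probe sets, 1 kept this order, at 6.72 and 5.90 in the MEKi arrays, against 7.50 and 7.18 in the vehicle arrays. In another the groups overlapped, at 5.04 and 4.79 in the MEKi arrays, against 5.19 and 4.97 in the vehicle arrays, and the last stayed between 4.33 and 4.43. With all probe sets of the gene averaged, the log2 difference was −0.53.

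Troponin of fast fibres, the calcium switch of the thin filament, has 3 subunits. Tnni2, the inhibitory subunit, read 4.87 and 5.20 in the MEKi arrays, against 4.37 and 5.12 in the vehicle arrays, and vehicle 1 was the lowest. Tnnt3, the tropomyosin-binding subunit, read 3.78 and 4.14 in the MEKi arrays, against 3.43 and 3.64 in the vehicle arrays, with a log2 difference of 0.43 (SE 0.22). Tnnc2, the calcium-binding subunit, lay between 4.11 and 4.13 on 3 arrays and at 4.66 on vehicle 2. The 3 subunits thus did not share an order over the arrays.

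The slow-fibre isoforms held 1 of the 2 members with a range above 2 log2 units. Tnnc1, the troponin C of slow fibres and heart, read 4.49 in MEKi 1 and 6.93 in MEKi 2, against 5.08 in vehicle 1 and 4.66 in vehicle 2. It was high on MEKi 2 alone, and the other MEKi array gave the lowest reading of all. The log2 difference by label was 0.84 (SE 0.92, 95% interval −1.79 to 3.46), and it was −0.38 without MEKi 2. Its partners in slow troponin did not have this pattern. Tnnt1 read 4.56 and 4.82 in the MEKi arrays, against 4.59 and 5.51 in the vehicle arrays, highest on vehicle 2, and Tnni1 stayed between 3.80 and 4.14.

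Myosin genes of slow fibres lay below the median of every array. Myl2, the slow regulatory light chain, read 3.59 and 4.05 in the MEKi arrays, against 4.07 and 3.81 in the vehicle arrays. Myl3, the slow essential light chain, read 4.14 and 4.25 in the MEKi arrays, against 4.35 and 3.91 in the vehicle arrays. Myh7, the slow heavy chain, had the narrowest range of all members, 0.19, between 3.99 and 4.18. In these 3 genes the groups overlapped, although those of Myl2 did not after centring.

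Z disc genes, whose products anchor thin filaments, were below the array median on every array, and the titin gene exceeded it on 1. Ttn encodes titin, the spring that spans each sarcomere from the Z disc to the M band, and it read 5.29 in MEKi 1 and 3.42 in MEKi 2, against 4.27 in vehicle 1 and 4.31 in vehicle 2. The highest and the lowest reading were both from arrays labelled MEKi, and the log2 difference by label was 0.07 (SE 0.70) and −0.05 after centring. A further Ttn probe set had another order, at 4.62 and 3.95 in the MEKi arrays, against 3.64 and 4.66 in the vehicle arrays.

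Actn2, an α-actinin that cross-links actin at the Z disc, read 4.89 and 4.22 in the MEKi arrays, against 4.12 and 4.81 in the vehicle arrays, high on MEKi 1 and vehicle 2. Actn3, the α-actinin of fast fibres, read 4.49 and 3.91 in the MEKi arrays, against 3.94 and 4.03 in the vehicle arrays. Tcap, which caps titin at the Z disc, read 3.88 and 4.37 in the MEKi arrays, against 4.17 and 4.25 in the vehicle arrays. The remaining Z disc members Ldb3, Myoz1 and Myot lay between 3.32 and 4.44.

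**Figure D3:**
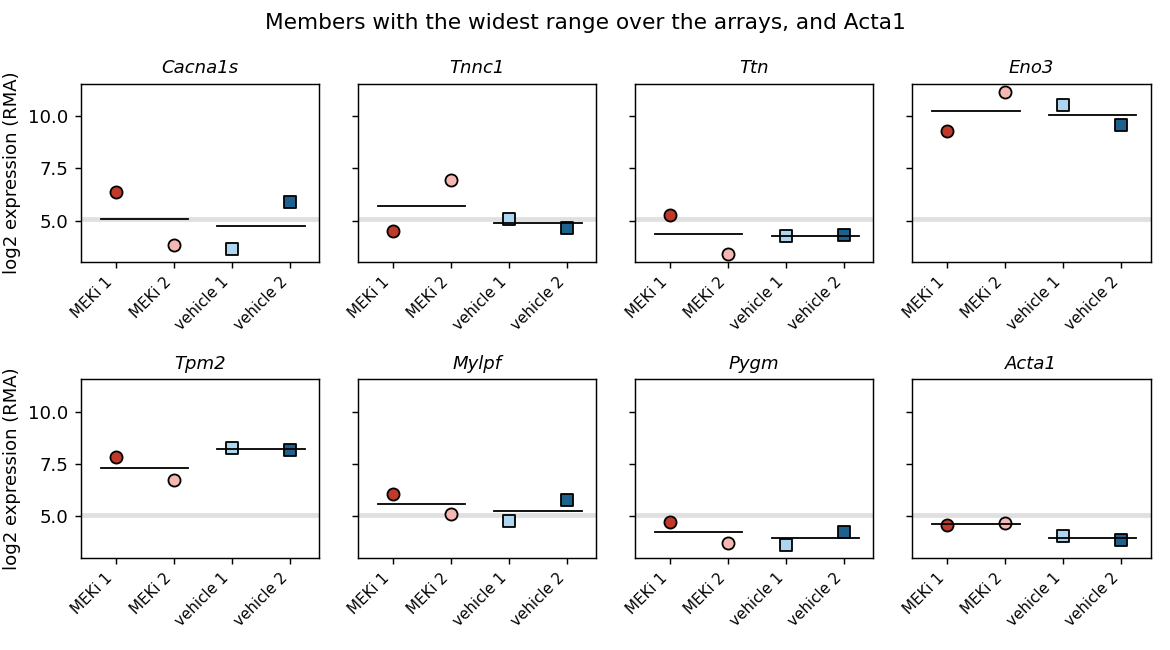
Log2 expression (y axis, RMA values) in each array of the 7 members with a range over 1 log2 unit and of Acta1. Black lines are the means of the arrays of a label and the grey band spans the array medians; Cacna1s is high on MEKi 1 and vehicle 2, Tnnc1 on MEKi 2 alone, and Acta1 lies below the band on all 4 arrays.

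Among the calcium genes, Cacna1s had the widest range of all members, 2.71 log2 units. Cacna1s encodes the voltage sensor of excitation-contraction coupling and read 6.35 in MEKi 1 and 3.85 in MEKi 2, against 3.64 in vehicle 1 and 5.88 in vehicle 2. It was high on 1 array of each label and below the 25th percentile on the other, so that the log2 difference by label, 0.34, had a standard error of 1.24 (95% interval −3.19 to 3.87). B cell and lymph node genes were split in the same way, with Ms4a1, a B cell surface protein, at 12.21 (MEKi 1), 3.97 (MEKi 2), 4.15 (vehicle 1) and 11.61 (vehicle 2), and the part of lymphoid tissue in the Cacna1s readings was not tested.

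Ryr1, the calcium release channel that Cacna1s opens in muscle, read 5.75 and 5.45 in the MEKi arrays, against 5.79 and 5.79 in the vehicle arrays. It was above the median on all 4 arrays and did not share the split of Cacna1s. A further Ryr1 probe set read 3.34 and 3.21 in the MEKi arrays, against 4.08 and 3.59 in the vehicle arrays. In both probe sets the MEKi readings were the lower ones, and the log2 difference of the one that stood for the gene was −0.19 (SE 0.19), with groups that overlapped after centring.

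Atp2a1, the calcium pump of fast fibres, read 4.80 and 4.66 in the MEKi arrays, against 4.40 and 4.94 in the vehicle arrays. Trdn encodes triadin, which links the release channel to its calcium store, and read 4.15 and 3.98 in the MEKi arrays, against 3.76 and 3.74 in the vehicle arrays, with a log2 difference of 0.32 (SE 0.17). Further Trdn probe sets were split in sign, with differences by label of 0.43 and 0.01, against −0.13, −0.11 and −0.13. Casq1, the calcium-storing calsequestrin of fast fibres, read 4.50 and 4.63 in the MEKi arrays, against 4.27 and 4.31 in the vehicle arrays (log2 difference 0.28, SE 0.17). Neither gene reached an array median, although in both the groups did not overlap before centring. Pvalb, the calcium buffer parvalbumin, stayed between 3.86 and 4.23.

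Among the energy genes, Eno3 lay above the median of every array. Eno3, the muscle form of the glycolytic enzyme enolase, read 9.29 in MEKi 1 and 11.15 in MEKi 2, against 10.54 in vehicle 1 and 9.56 in vehicle 2. It was high on MEKi 2 and vehicle 1, and the log2 difference by label was 0.17 (SE 0.78). Of 3 other glycolytic genes, chosen after their values were seen, Pfkm and Aldoa were also high on those arrays. Only Pfkm of the 3 had the exact order of Eno3. Pfkm, a phosphofructokinase subunit, read 7.05 and 8.59 in the MEKi arrays, against 8.02 and 7.21 in the vehicle arrays, and Aldoa, which is used in many tissues, 11.81 and 12.47 in the MEKi arrays, against 12.24 and 11.79 in the vehicle arrays. Pgk1, a phosphoglycerate kinase, read 11.83 and 11.88 in the MEKi arrays, against 12.05 and 11.76 in the vehicle arrays, and was highest on vehicle 1. Ldha, listed with Pfkm and Aldoa, read 12.46 and 12.88 in the MEKi arrays, against 12.74 and 12.51 in the vehicle arrays. That is the order of Eno3.

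Pygm and Pgam2 ran the other way. Pygm, which breaks down glycogen in muscle, read 4.75 and 3.74 in the MEKi arrays, against 3.66 and 4.24 in the vehicle arrays. Pgam2, the muscle phosphoglycerate mutase, read 5.37 and 4.73 in the MEKi arrays, against 4.73 and 5.69 in the vehicle arrays. Both were higher on MEKi 1 and vehicle 2 than on MEKi 2 and vehicle 1, with log2 differences by label of 0.29 (SE 0.45) for Pygm and −0.16 (SE 0.45) for Pgam2. Mb, the oxygen store myoglobin, read 5.30 and 5.45 in the MEKi arrays, against 4.99 and 5.45 in the vehicle arrays, and Ckm, the muscle creatine kinase, stayed between 3.93 and 4.19.

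A range over 1 log2 unit was found in 7 of 35 members (Mylpf, Tpm2, Tnnc1, Ttn, Cacna1s, Eno3 and Pygm), where 25.4% of all genes had one. A range over 2 log2 units was found in 2 (Tnnc1 and Cacna1s), where 8.43% of all genes had one. The median range was 0.54 for the members and 0.55 for all genes. The 28 members with a range of 1 or less read between 3.32 and 5.79.

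Differences between single arrays, which carry no test, show where the wide members parted. MEKi 1 and vehicle 2 had 0 of 35 members more than 1 log2 unit apart (1.12% of all genes), and MEKi 2 and vehicle 1 had 2 (6.60% of all genes), of which Tnnc1 was higher and Tpm2 lower in MEKi 2. MEKi 1 and vehicle 1 had 5 (15.4% of all genes), with Mylpf, Ttn, Cacna1s and Pygm higher and Eno3 lower in MEKi 1. MEKi 2 and vehicle 2 had 4 (17.4% of all genes), with Tnnc1 and Eno3 higher and Tpm2 and Cacna1s lower in MEKi 2.

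Arrays of 1 label parted as far. MEKi 1 and MEKi 2 had 6 members more than 1 log2 unit apart (19.9% of all genes), with Tpm2, Ttn, Cacna1s and Pygm higher and Tnnc1 and Eno3 lower in MEKi 1. Vehicle 1 and vehicle 2 had 2 (11.7% of all genes), and both Mylpf and Cacna1s were lower in vehicle 1. The median difference of the members was 0.24 for MEKi 1 minus vehicle 1, 0.02 for MEKi 1 minus vehicle 2, 0.07 for MEKi 2 minus vehicle 1 and −0.06 for MEKi 2 minus vehicle 2, of which those for MEKi 1 minus vehicle 2 (−0.06) and MEKi 2 minus vehicle 1 (−0.09) turned negative after centring. Within a label it was 0.11 for MEKi 1 minus MEKi 2 and −0.04 for vehicle 1 minus vehicle 2, and over all genes these 6 medians ran from −0.04 to 0.05.

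Of the 35 members, 13 had several probe sets, with 25 further probe sets in all. Only 2 of the 25 exceeded the median of any array, both of them for Tpm2, and those outside Tpm2 read between 3.08 and 4.66. A range over 1 log2 unit was found in 2 of the 25. In 7 of the 13 genes a further probe set differed in sign by label from the one that stood for the gene.

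Of 33 other sarcomere genes, 25 were measured, with medians of 3.78 in MEKi 1 and 3.99 in MEKi 2, against 3.91 in vehicle 1 and 3.96 in vehicle 2, and 0 were called. The widest was Des, the intermediate filament of all muscle, at 8.13 and 5.33 in the MEKi arrays, against 6.10 and 8.0 in the vehicle arrays. Tpm1, a tropomyosin used in most cells, read 9.82 and 11.24 in the MEKi arrays, against 10.97 and 10.09 in the vehicle arrays. Des was thus high where Cacna1s was, and Tpm1 where Eno3 was. Pdlim3 and Tmod4, also among the widest of the list, were high where Des was. Pdlim3 read 6.52 and 4.56 in the MEKi arrays, against 5.30 and 6.35 in the vehicle arrays. Tmod4 read 6.72 and 5.53 in the MEKi arrays, against 5.66 and 6.90 in the vehicle arrays. It was among 4 of the 25 genes that lay above the median of every array.

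Of 20 other excitation-contraction genes, 17 were measured (medians 4.52 in MEKi 1 and 4.38 in MEKi 2, against 4.37 in vehicle 1 and 4.46 in vehicle 2) and 0 were called. Srl, a calcium-binding protein of the sarcoplasmic reticulum, read 4.95 and 6.53 in the MEKi arrays, against 5.20 and 4.93 in the vehicle arrays. Tmem38a, an ion channel of the same membrane, read 4.13 and 5.36 in the MEKi arrays, against 4.27 and 4.57 in the vehicle arrays. Both were highest on MEKi 2, as Tnnc1 was. Asph, with the widest range of the list, read 6.96 and 8.90 in the MEKi arrays, against 8.32 and 6.90 in the vehicle arrays. It was high on MEKi 2 and vehicle 1, as Eno3 was.

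Of 20 other muscle energy genes, 19 were measured (medians 5.47 in MEKi 1 and 4.95 in MEKi 2, against 5.95 in vehicle 1 and 5.98 in vehicle 2) and 0 were called. Gpd1, a glycerol phosphate dehydrogenase also abundant in fat, read 5.47 and 5.57 in the MEKi arrays, against 7.53 and 7.15 in the vehicle arrays, a log2 difference of −1.82 (SE 0.21, adjusted p = 1 in limma). Cox8b, a respiratory chain subunit of muscle and brown fat, read 4.41 and 4.22 in the MEKi arrays, against 5.92 and 5.98 in the vehicle arrays, a log2 difference of −1.63 (SE 0.18, adjusted p = 1). In both genes the gap between the labels was wider than the gap within either label. The groups overlapped in Cox6a2, at 6.86 and 5.36 in the MEKi arrays, against 5.95 and 7.00 in the vehicle arrays. They also overlapped in Ppp1r3c, which had the widest range of the list and was low on MEKi 2 alone. It read 6.54 and 4.46 in the MEKi arrays, against 6.26 and 6.48 in the vehicle arrays.

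Of 20 satellite cell and myogenic factor genes, 19 were measured (medians 4.24 in MEKi 1 and 4.17 in MEKi 2, against 4.06 in vehicle 1 and 3.99 in vehicle 2) and 0 were called. Myod1, a master regulator of the myogenic lineage, read 3.72 and 3.77 in the MEKi arrays, against 3.57 and 3.60 in the vehicle arrays. Pax7, the satellite cell factor, read 3.64 and 3.54 in the MEKi arrays, against 3.31 and 3.58 in the vehicle arrays. Cdh15, the M-cadherin of satellite cells, stood out on MEKi 2, at 4.45 and 6.79 in the MEKi arrays, against 4.10 and 4.33 in the vehicle arrays. Mef2c, a muscle transcription factor that B cells also use, read 10.55 and 7.79 in the MEKi arrays, against 7.77 and 10.36 in the vehicle arrays. Chrnb1 was high on MEKi 2 and vehicle 1, at 6.42 and 8.94 in the MEKi arrays, against 8.48 and 7.05 in the vehicle arrays.

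Cardiac muscle genes, of which 10 of 11 were measured, had medians of 4.17 in MEKi 1 and 3.90 in MEKi 2, against 4.28 in vehicle 1 and 4.46 in vehicle 2. Tnnt2, the cardiac troponin T, read 4.26 and 6.23 in the MEKi arrays, against 4.45 and 4.80 in the vehicle arrays, high on MEKi 2 as Tnnc1 was. The cardiac genes with wider ranges did not have this pattern. Myl4, a light chain of the atrium, read 8.53 and 5.67 in the MEKi arrays, against 5.02 and 8.63 in the vehicle arrays, and Nppb, a natriuretic peptide, read 4.17 and 3.85 in the MEKi arrays, against 6.99 and 5.61 in the vehicle arrays. The list thus had no single array order.

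Smooth muscle and pericyte genes, of which 9 of 12 were measured, had medians of 6.60 in MEKi 1 and 4.48 in MEKi 2, against 5.83 in vehicle 1 and 6.49 in vehicle 2. Acta2, the smooth muscle actin, read 10.00 and 8.43 in the MEKi arrays, against 10.78 and 10.44 in the vehicle arrays, the array order of Tpm2. It was the only gene of its list with that exact order. Myh11, the smooth muscle myosin, read 6.69 and 4.17 in the MEKi arrays, against 6.41 and 7.03 in the vehicle arrays, and Pdgfrb, a pericyte and fibroblast receptor with the widest range of the list, read 6.94 and 9.82 in the MEKi arrays, against 7.38 and 7.31 in the vehicle arrays. Tpm2 and Myh11 were thus lowest where Pdgfrb was highest, and the part of smooth muscle in the Tpm2 readings was not tested.

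Markers of fat and of lymphoid tissue differed more between arrays, with a median range of 2.47 log2 units for adipocyte genes and 5.66 for B cell and lymph node genes, against 0.54 for the muscle members. The 10 measured adipocyte genes of 12 had medians of 7.54 in MEKi 1 and 6.20 in MEKi 2, against 8.89 in vehicle 1 and 8.46 in vehicle 2, again the array order of Tpm2. Adipoq, the fat-cell hormone adiponectin, read 9.77 and 5.99 in the MEKi arrays, against 11.00 and 10.44 in the vehicle arrays. The 11 measured B cell and lymph node genes of 12 had medians of 9.70 in MEKi 1 and 4.17 in MEKi 2, against 4.10 in vehicle 1 and 9.51 in vehicle 2.

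The 10 tumor epithelial genes had medians of 8.55 in MEKi 1 and 6.21 in MEKi 2, against 8.49 in vehicle 1 and 8.74 in vehicle 2. The 4 with the widest range were split. Their keratin Krt8 read 10.54 and 12.11 in the MEKi arrays, against 12.92 and 11.75 in the vehicle arrays. Krt19 read 8.91 and 4.52 in the MEKi arrays, against 9.36 and 9.42 in the vehicle arrays. Krt8 and Lcn2 were lowest on MEKi 1, whereas Krt19 and Epcam were lowest on MEKi 2. Nerve and Schwann cell genes (6 of 9 measured) had medians of 4.99 in MEKi 1 and 4.2 in MEKi 2, against 4.39 in vehicle 1 and 5.34 in vehicle 2. Brown adipocyte genes (7 of 8 measured) had medians between 4.10 and 4.45, skin keratinocyte genes (12 of 12) between 3.64 and 3.91, and erythroid genes (3 of 6) between 4.53 and 5.89. Of all these lists, 0 genes were called between the labels, and what part the tissues they mark had in the muscle readings was not tested.

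**Figure D4:**
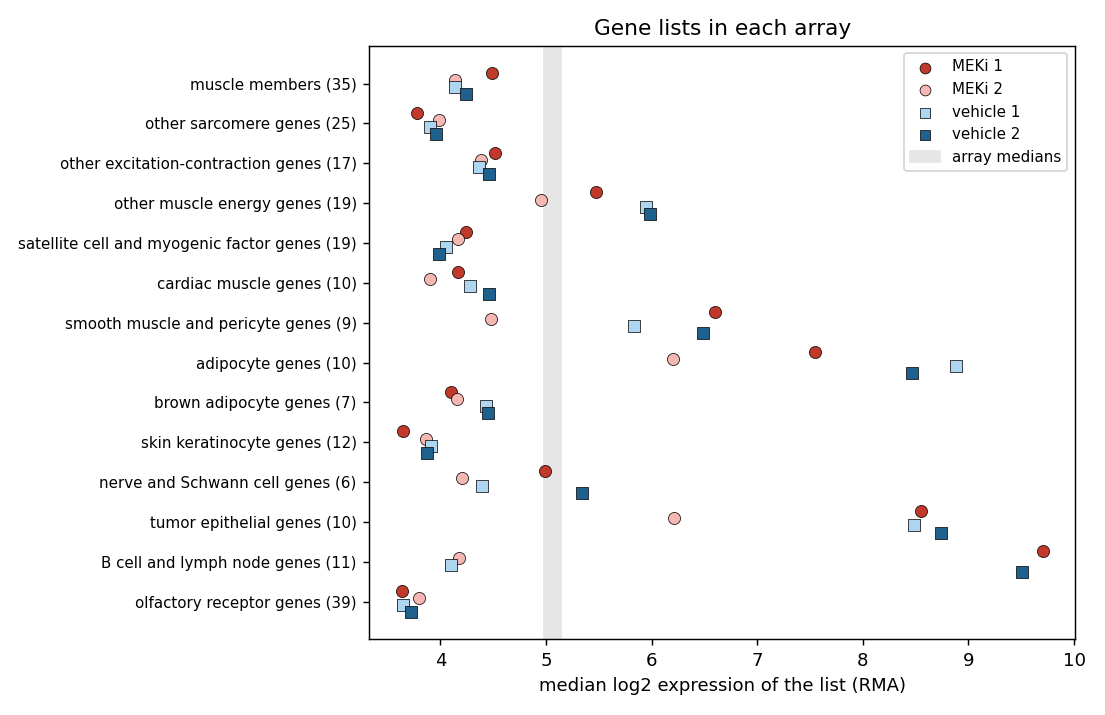
Median log2 expression (x axis, RMA values) of each gene list in each array, followed by its number of measured genes. Circles stand for MEKi arrays and squares for vehicle arrays; the medians of all members and of the other sarcomere and excitation-contraction genes stay to the left of the array medians (shaded), while B cell and lymph node genes lie near 4 or above 9.

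The median centred profile of the members over the 4 arrays was nearly flat, with a range of 0.18. The genes outside all lists that lay nearest to it were Cnot6, Chrna5, Spaca3, Senp6, Wapl, Acyp1, Agfg1, Psd, Tex26 and Cdk2, at Euclidean distances of 0.07 to 0.08 over the 4 arrays. They were equally flat, and included Cnot6 at 10.82 and 10.70 in the MEKi arrays, against 10.61 and 10.74 in the vehicle arrays.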

How the data were processed

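The authors deposited log2 expression values of 45141 probe sets for 4 arrays; per the labels they were made with RMA, and the methods name quantile normalization. Leaving out 104 control probe sets left 45037, of which 28898 have 1 gene symbol, 551 have several and 15588 are unnamed here; 28689 symbols matched the mouse gene table by Entrez identifier.

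With limma 3.58.1 (R 4.3.3), MEKi was compared with vehicle by label in every probe set, two-sided, with Benjamini-Hochberg adjustment over all probe sets. The fit was tested on simulated data with independent noise around each probe set's mean. Such data lack the split of these arrays across labels, so the test does not gauge the fit here. The members, lists and tests were chosen with earlier results of these data known, and the olfactory receptor list after values were seen. Values by array were given for up to 4 members per role group with the widest range, for members that ran against the array order of the members' median and for some others, and genes of other lists were taken from the 4 with the widest range, apart from Aldoa, Pfkm, Pgk1, Ldha, Myod1, Pax7 and Dusp6, which were chosen after their values were seen.

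Same-numbered arrays did not deviate together (r = −0.76), so the numbers were not taken as pairs. Alternatives were an intensity trend, robust moderation, a filter on the dimmest share of probe sets (0.25), centring on 10 reference genes, a replicate block, each array left out, 1 probe set per gene, averaged probe sets and an adjusted p under 0.05. Python 3.11.15 with pandas 2.3.3, numpy 2.4.6 and matplotlib 3.10.9 made tables and figures.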

Additional observations from a re-analysis of the deposited data

How the results depend on the processing

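Under every alternative fitted with limma, 0 probe sets and 0 members were called by label, while the number of probe sets at an unadjusted p under 0.05 ran from 80 to 2027, the extremes without vehicle 1 and without MEKi 1. With the replicate block the counts were 0 called and 267 at an unadjusted p under 0.05, and with the crossed block (MEKi 1 with vehicle 2), chosen after seeing the data, 0 and 1447. Same-numbered arrays gave r = −0.76, so the numbers do not pair the arrays. The value for crossed arrays, 0.76, is fixed by the first with 2 arrays per group and is no separate evidence. Centring on reference genes moved the median of all probe sets to −0.11, against 0.01, and that of the members to −0.0284, against 0.09. It gave median member differences of 0.34 (MEKi 1 minus vehicle 1), −0.0586 (MEKi 1 minus vehicle 2), −0.0866 (MEKi 2 minus vehicle 1), −0.40 (MEKi 2 minus vehicle 2), 0.37 (MEKi 1 minus MEKi 2) and −0.23 (vehicle 1 minus vehicle 2), and of −0.0521 for Ttn by label. Averaging the probe sets of each gene gave 0.11 for MEKi 1 minus vehicle 1 and −0.53 for Tpm2 by label, against −0.92. With 1 array left out, the members' median by label ran from −0.0385 (without MEKi 1) to 0.20 (without vehicle 2). The difference by label ran from −0.91 to 1.59 for Cacna1s, −0.38 to 2.06 for Tnnc1, −0.87 to 1.01 for Ttn, −0.76 to 1.10 for Eno3, −0.19 to 0.83 for Mylpf and −0.22 to 0.79 for Pygm, but from −1.47 to −0.38 for Tpm2 and from 0.54 to 0.74 for Acta1. In settings chosen after seeing the data, 13 members stayed below the highest olfactory receptor gene on every array, where 23 stayed below the array median. The share of all genes below that olfactory receptor gauge was not computed. Also in settings chosen after seeing the data, ranges over 1 log2 unit numbered 2 in MEKi 2 and vehicle 1 alone and 0 in MEKi 1 and vehicle 2 alone, against 7 in all 4 arrays. Other pairs of arrays held up to 6 members more than 1 log2 unit apart. Leaving out the dimmest probe sets left 30 members. Readings near the 25th percentile lie close to the arrays' floor, where a true difference is understated.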
